A study of Drosophila melanogaster with 2 samples.

Results

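Of 4706 Araucan ChIP-seq peaks on the assembled arms of the Drosophila melanogaster genome, 1205 (25.6%, 95% exact interval 24.4 to 26.9) had their summit at a one-direction coding promoter. A summit, the highest point of a peak, was counted there when it lay within 500 bp of a transcription start site (TSS) of a protein-coding gene and every coding TSS within 500 bp was on the same strand. Of the other peaks, 520 had coding TSSs of both strands within 500 bp (divergent promoters) and 2981 had no coding TSS within 500 bp. The samples were whole embryos of 0 to 24 h that carried an ara-eGFP transgene, which makes Araucan fused to enhanced green fluorescent protein, and chromatin was precipitated with an antibody against GFP after sonication to fragments of 200 to 800 bp. There was 1 group with 2 biological replicates, and control libraries were not used here, so that the comparisons are between classes of peaks and not between conditions. Embryos of all these ages and all their cell types were pooled in each sample, so that a weak peak in all cells and a strong peak in few cells cannot be told apart.

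Araucan is a homeodomain transcription factor of the TALE class, and with its relatives caupolican and mirror it forms the Iroquois complex, known for roles in patterning sensory organs, wing veins and the eye. A one-direction promoter starts coding transcripts to one side only, while a divergent promoter serves a gene on each side. The divergent class here asks only for coding TSSs of both strands within 500 bp, in any order. It can therefore include start sites that face each other, and how many did was not tested. Fly core promoters carry short sequences that are bound by general promoter factors, among them DREF, M1BP and the GAGA factor, or that help to place the start site, such as the TATA box and the Initiator. The 5' side of a start site is called upstream below, in the direction of the gene.

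The DNA under the strongest of these peaks is shown first, because these are the members of highest signal. Each window holds 101 bases of dm6 centred on the summit and is written in the direction of the gene. Capitals mark matches on either strand to the Iroquois pentamer TAACA or the palindrome ACANNTGT. These are windows from among the 15 strongest peaks.
Ugalt, chrX:2703841-2703941, minus strand: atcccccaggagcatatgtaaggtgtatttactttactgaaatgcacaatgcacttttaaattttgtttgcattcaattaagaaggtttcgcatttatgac
CG14100, chr3L:19590564-19590664, minus strand: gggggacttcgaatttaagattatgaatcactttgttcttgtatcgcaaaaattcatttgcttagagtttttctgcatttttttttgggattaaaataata
ph-p, chrX:2137305-2137405, minus strand: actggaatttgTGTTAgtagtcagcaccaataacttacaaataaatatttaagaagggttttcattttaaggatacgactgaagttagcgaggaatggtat
CG13921, chr3L:1746721-1746821, plus strand: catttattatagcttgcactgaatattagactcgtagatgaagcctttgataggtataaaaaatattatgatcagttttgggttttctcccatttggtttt
RluA-1, chr2L:10474465-10474565, minus strand: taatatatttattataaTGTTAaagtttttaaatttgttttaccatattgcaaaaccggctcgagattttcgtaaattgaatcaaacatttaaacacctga
gish, chr3R:16280679-16280779, plus strand: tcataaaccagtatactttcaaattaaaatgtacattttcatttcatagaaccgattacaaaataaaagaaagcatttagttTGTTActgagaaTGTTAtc
Btk, chr2L:8277799-8277899, minus strand: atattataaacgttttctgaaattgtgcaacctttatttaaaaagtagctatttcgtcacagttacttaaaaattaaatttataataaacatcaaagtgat
Of these windows, those of ph-p and RluA-1 held 1 match and that of gish held 2, all of them to the pentamer, and the others held none. The windows were rich in A and T, with G and C making up between 21.8% (Btk) and 33.7% (Ugalt) of the bases.

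A further set of windows shows the promoter sequences counted below, each in the strongest peak that held it within the 101 bases and could be shown, so that stronger members with the same sequence exist. Capitals mark TATCGATA, the site of DREF, in JIL-1, the site of M1BP (GGTCACACT, here on the other strand) in CG43163, the palindromic E-box CACGTG in fok, the TATA box TATAAA in CG18549 and the GAGA factor site GAGAGAG, on the other strand, in Inx7. The Inx7 window was added after its values were seen.
JIL-1, chr3L:11093164-11093264, minus strand: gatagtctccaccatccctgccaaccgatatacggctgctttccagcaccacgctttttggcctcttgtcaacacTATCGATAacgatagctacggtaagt
CG43163, chr3L:8507256-8507356, minus strand: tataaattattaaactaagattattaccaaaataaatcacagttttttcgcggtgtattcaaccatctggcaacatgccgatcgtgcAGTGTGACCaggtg
fok, chr2L:20085196-20085296, minus strand: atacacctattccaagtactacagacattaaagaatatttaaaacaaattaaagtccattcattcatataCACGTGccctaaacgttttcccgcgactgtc
CG18549, chr3R:12449127-12449227, plus strand: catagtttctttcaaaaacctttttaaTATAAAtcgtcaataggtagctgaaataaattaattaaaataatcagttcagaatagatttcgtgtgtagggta
Inx7, chrX:6993946-6994046, minus strand: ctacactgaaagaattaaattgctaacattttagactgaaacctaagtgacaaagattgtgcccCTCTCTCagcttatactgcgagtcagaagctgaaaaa
The signals of these 5 peaks were 120.6 (JIL-1, which encodes a histone H3 kinase), 159.0 (CG43163), 294.4 (fok), 1387 (CG18549) and 131.4 (Inx7, a gap junction innexin). CG18549 was the sixth strongest member of all. The JIL-1 summit lay 21 bp upstream of its TSS and the others between 119 bp (CG18549) and 384 bp (Inx7) upstream. A match shows only that these letters stand in the window.

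The members covered a wide range of signal, the authors' own value for a peak in the pooled data, with a normalization not given in the sources used here. The median was 95.1, with quartiles at 71.5 and 163.8 and a maximum of 2240. The medians were 123.0 at divergent promoters, 93.2 away from coding promoters and 96.2 in the whole list. In the replicates' own values, the members had a median of 43.5 in replicate 1 and 56.0 in replicate 2. Read counts are not part of the peak lists, and the depth is therefore unknown.

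The strongest member lay at Ugalt, which encodes a UDP-galactose transporter of the Golgi, with a signal of 930.7 in replicate 1 and 1327 in replicate 2 and a pooled signal of 2240. Its summit was 39 bp upstream of the TSS. At CG14100 the replicates had 743.9 and 1147 (pooled 1903, summit 90 bp upstream). At ph-p, which encodes the Polycomb group protein polyhomeotic proximal, they had 821.3 and 1014 (pooled 1832). In each of these genes replicate 2 was higher, as it was in 924 of the 1205 members (76.7%). The ph-p peak was also at the limit of the rule, with its summit exactly 500 bp upstream of a TSS. A second ph-p summit of signal 667.5 lay 519 bp away and 497 bp downstream of another TSS of the gene, with 294.1 in replicate 1 and 389.9 in replicate 2. Also at the limit were aru, 500 bp downstream with a signal of 370.3, and mtsh, 500 bp downstream with 59.7. Just outside it were t-cup at 501 bp with 87.7 and norpA, which encodes the phospholipase C of the photoreceptor cascade, at 502 bp with 73.1.

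Next in signal was px (plexus), a gene of wing vein patterning, whose summit lay in an intron and 211 bp upstream of an internal TSS. Its values were 695.7 in replicate 1 and 1134 in replicate 2, with a pooled signal of 1823. PNPase, which encodes the RNA-degrading enzyme polynucleotide phosphorylase, had 554.3 and 837.9 (pooled 1397) with the summit 72 bp downstream of a TSS in a 5' UTR. It was the only one of the 15 strongest members with a downstream summit. The remaining 9 of these 15, beside CG18549, had pooled signals of 836.5 to 1352. They lay at CG1888, CG13921, mRpL41 (a subunit of the mitochondrial ribosome), Fkbp14 (a peptidyl-prolyl isomerase), RluA-1 (of the pseudouridine synthase family), gish (a casein kinase of the gamma type), Btk (a Tec-family tyrosine kinase), Tina-1 and Sox14 (an HMG-box transcription factor). Their summits were 104 bp (Fkbp14) to 243 bp (Sox14) upstream. All 15 were in the thresholded list of each replicate. The strongest members of the arms differed widely, at 1052 on 2L (RluA-1), 1823 on 2R (px), 1903 on 3L (CG14100), 1397 on 3R (PNPase), 2240 on X (Ugalt) and 105.2 on arm 4, where Sox102F held the single member.

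Summits were found mostly upstream. Of the 1205 members, 855 lay upstream of the nearest coding TSS, 347 downstream and 3 on it, an upstream share of 71.1% (68.5 to 73.7) that differed from an even split (exact 2-sided binomial test, p = 6.49e-50). The median position was 109 bp upstream, with quartiles at 224 bp upstream and 26 bp downstream. The test treats peaks as independent, although neighbouring peaks share chromatin, and this holds for all tests over peaks here.

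Position went with signal. From the weakest to the strongest quartile of the members, the upstream share was 55.3%, 68.7%, 74.8% and 85.7%, and the median position moved from 25 bp to 71, 117 and 174 bp upstream. Members with a summit 100 to 200 bp upstream had a median signal of 128.3 and those 200 to 300 bp upstream 136.5. Members within 100 bp downstream had 78.6, and those 100 to 200 bp downstream 73.9. The signal was thus higher on the upstream flank than at or past the start site. As a description over the 1205 members, Spearman's rank correlation between position and signal was -0.25.

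**Figure D1:**
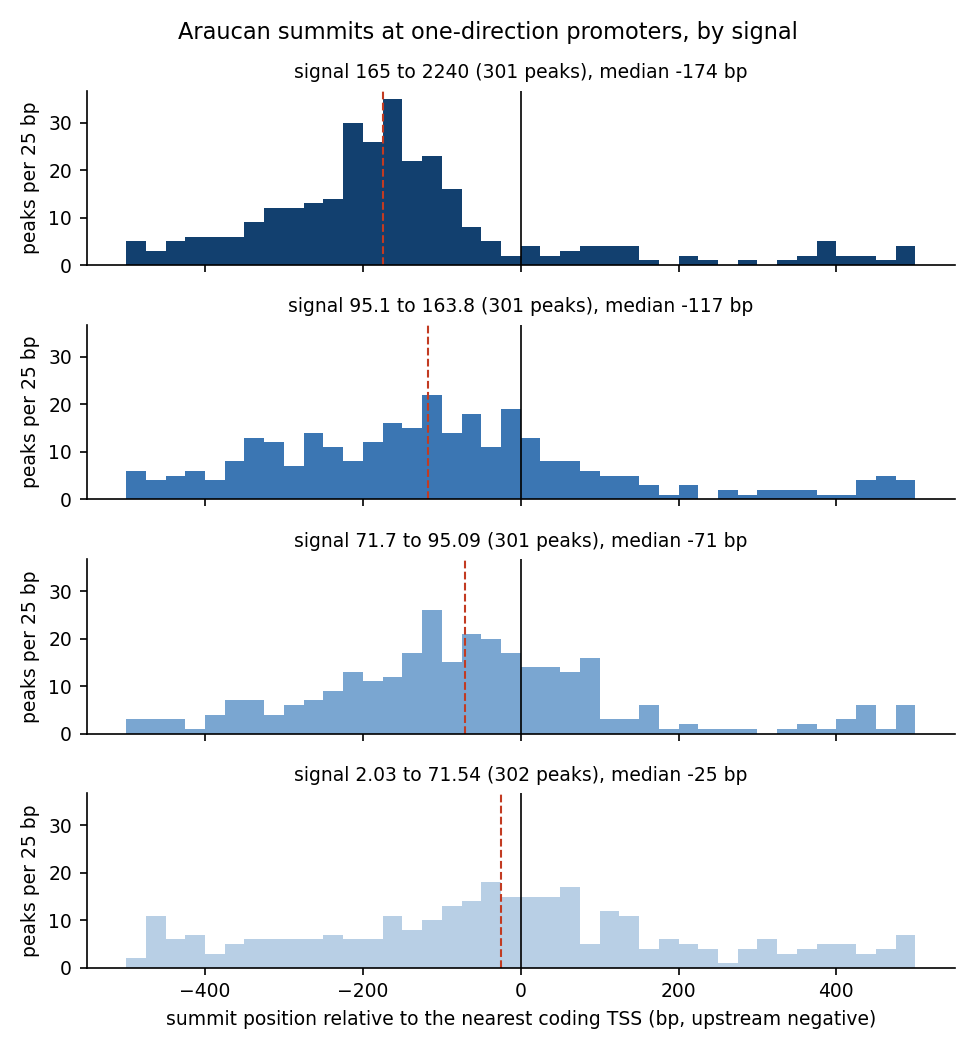
Number of members per 25 bp by the position of the summit relative to the nearest coding TSS (x axis in bp, upstream negative), in 4 panels from the strongest quartile (top) to the weakest (bottom), with the TSS as a solid line and the median as a dashed line. In the strongest quartile the summits gather around a median of 174 bp upstream, and in the weakest they spread over both sides of the TSS.

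Base composition went with both. The share of G and C in the 201 bp around the summit had a median of 39.8% in members, and it was 47.3%, 43.3%, 37.3% and 33.8% from the weakest to the strongest quartile. The rank correlation between this share and signal was -0.48 in members, -0.28 at divergent promoters and -0.40 away from coding promoters. The summits near or past the TSS were also the richer ones in G and C, with a median of 47.8% within 100 bp downstream and 35.8% at 100 to 200 bp upstream. What position, composition and signal each contribute was not tested.

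By annotation, 492 summits (40.8%) were intergenic, 367 (30.5%) in introns, 271 (22.5%) in 5' UTRs, 51 (4.23%) in coding exons and 24 (1.99%) in 3' UTRs. Of the intronic summits 296 of 367 lay upstream of the nearest coding TSS, in an intron of the same gene or of another. The median signal was 109.7 in introns, 107.5 in intergenic DNA, 78.9 in 5' UTRs and 67.6 in coding exons. Of the coding exon summits 5 of 51 (9.80%) were listed in both replicates, against 267 of 492 (54.3%) of the intergenic ones. Coding exons were the richest in G and C, at a median of 56.2%.

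Most members had simple surroundings. A single coding gene lay within 500 bp of 1168 of them (96.9%) and a single coding TSS within 500 bp of 985. The class is defined by coding genes alone, and 52 members (4.32%) had a non-coding TSS on the other strand within 500 bp. The strongest such members were at eIF6, which encodes a factor of large ribosomal subunit maturation, with 357.8 in replicate 1 and 434.5 in replicate 2, and at brwl, with 222.5 and 375.5. A coding TSS of the other strand stood 500 to 1000 bp away from 177 members (14.7%), whose median signal was 85.5, against 98.2 for the 1028 with none within 1000 bp.

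The members had 1075 nearest genes, and 106 of these held several member summits. Without 48 members whose pooled signal was below both replicate values, described further below, 76 of 1065 nearest genes held several. The most were found at Ptpmeg2 (a protein tyrosine phosphatase), Rtnl1 (a reticulon of the endoplasmic reticulum) and dnc (dunce, a cAMP phosphodiesterase), with 5 each, which were named after their values were seen. At Ptpmeg2 the pooled signals were 61.9, 112.4, 237.5, 424.5 and 566.1. At Rtnl1 they were 47.8, 156.9, 166.9, 284.8 and 783.9, and at dnc 60.5, 99.7, 124.4, 155.2 and 373.1. In each of these genes the summits differed several-fold in signal.

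The first comparison with other peaks asked whether members were as often strong. A peak was called strong when its signal was above the median of all 4706 peaks, which 50% are by construction. Of the members 597 of 1205 (49.5%, 46.7 to 52.4) were strong, against 335 of 520 (64.4%, 60.1 to 68.5) at divergent promoters, an odds ratio of 0.54 (0.44 to 0.67; 2-sided Fisher's exact test, adjusted p = 4.85e-08 over 4 comparisons). With each replicate's own signal the odds ratio was 0.58 in replicate 1 and 0.59 in replicate 2. Away from coding promoters 1421 of 2981 peaks (47.7%) were strong, which did not pass the test (odds ratio 1.08, 0.94 to 1.23, Fisher's exact test, adjusted p = 0.275). That comparison depended on the replicate: the odds ratio was 1.25 with the signal of replicate 1 (unadjusted exact p = 0.00132) and 1.05 with that of replicate 2 (unadjusted p = 0.473).

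The next comparison was of repeat between the replicates. A peak was counted in both when it overlapped by at least 1 bp a peak in each replicate's own thresholded list, as 44.9% of all peaks did. This held for 564 of 1205 members (46.8%, 44.0 to 49.7), for 303 of 520 divergent peaks (58.3%, 53.9 to 62.5) and for 1246 of 2981 peaks away from coding promoters (41.8%, 40.02 to 43.6). The odds ratio was 0.63 (0.51 to 0.78) against divergent peaks (adjusted p = 2.62e-05, Fisher's exact test) and 1.23 (1.07 to 1.40) against those away from coding promoters (adjusted p = 0.00453). Among peaks above the median signal the difference from divergent peaks was not called (odds ratio 0.97, exact p = 0.927). With a TSS window of 250 bp, the difference from peaks away from coding promoters was not called (odds ratio 1.13, exact p = 0.0965). Of the members 617 (51.2%) were in replicate 1's list, which held 2402 peaks, and 856 (71.0%) in replicate 2's, which held 4136, and 296 (24.6%) were in neither.

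**Figure D2:**
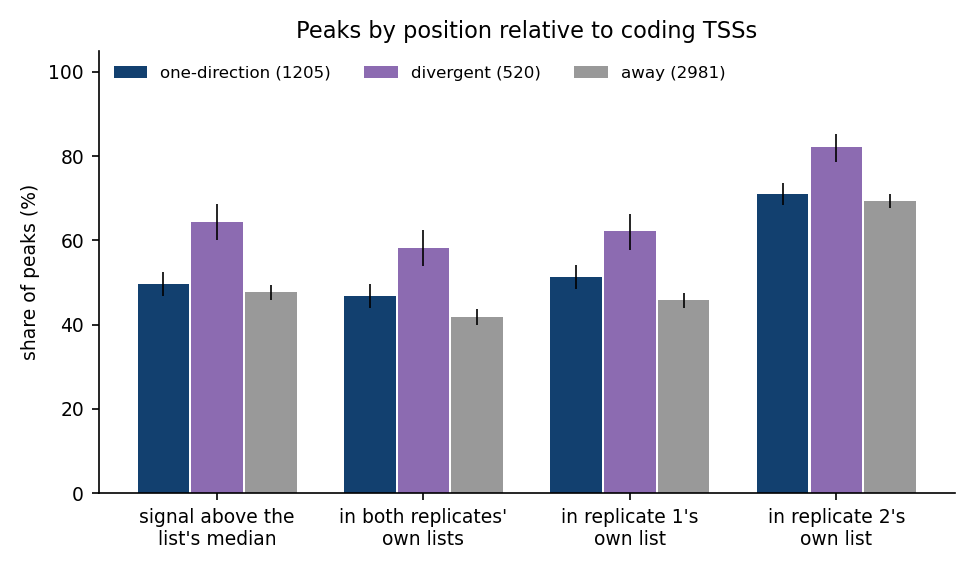
Share of peaks (y axis, %) that were above the median signal of the list or overlapped the replicates' own thresholded lists, for peaks at one-direction promoters, at divergent promoters and away from coding promoters, with exact 95% intervals as error bars. The share of strong peaks is 49.5% in members and 64.4% at divergent promoters.

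Replicate detection followed signal closely, since 6.29%, 14.3%, 67.4% and 99.3% of members were in both lists from the weakest to the strongest quartile. Across members, the rank correlation between the replicates' signals was 0.76, but it was 0.81 over the 602 members of higher pooled signal and -0.002 over the 603 of lower pooled signal. The pooled value that split them is itself close to the sum of both replicates. The median log2 ratio of replicate 1 to replicate 2 was -0.37 (SD 0.45 over members), and it went from -0.13 in the weakest quartile to -0.26, -0.47 and -0.58 in the strongest. The ratio also went with base composition: it was -0.58, -0.47, -0.26 and -0.15 from the quartile of members lowest in G and C to the highest. Within the strongest quartile by signal, the same order held, with -0.62, -0.58, -0.48 and -0.40. In the weakest quartile by signal the medians were 32.4 in replicate 1 and 34.4 in replicate 2. These are close to the low end of the values, such as 25.7 (Drat, replicate 1) and 25.4 (CG15629, replicate 2). The part of this low end in the order of the ratios was not tested. Replicate 2 was highest relative to replicate 1 at strong summits rich in A and T.

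Single members departed far from this. Smg5, which encodes a factor of nonsense-mediated mRNA decay, had 92.5 in replicate 1 and 302.8 in replicate 2 (log2 ratio -1.71). unc-5, which encodes a netrin receptor, had 27.8 and 104.2 (-1.91), and Drat had 25.7 and 92.8 (-1.85). The Drat value in replicate 2 is identical to that of a stronger peak 201 bp away, so that this ratio is not the peak's own. In the other direction, CG1354 had 72.8 in replicate 1 and 29.2 in replicate 2 (1.32). CG15629 had 51.7 and 25.4 (1.03), and mtSSB, which encodes the single-strand DNA-binding protein of mitochondria, had 111.5 and 55.2 (1.01). With 1 value for each replicate, no error can be set on a single ratio.

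**Figure D3:**
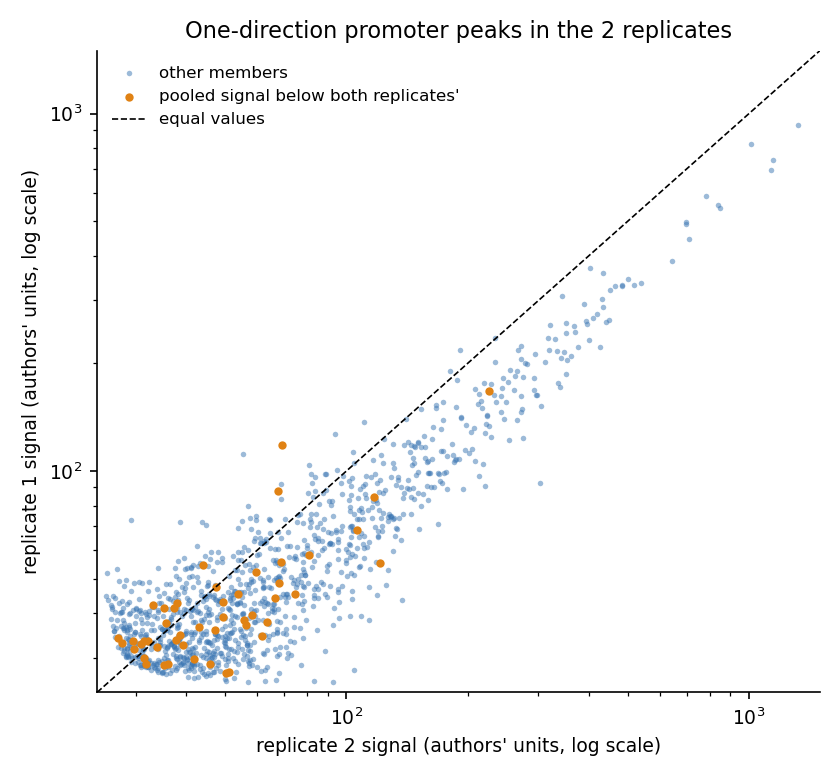
Signal of each member in replicate 1 (y axis) and replicate 2 (x axis), in the authors' units on log scales, with the dashed line at equal values and the members whose pooled signal was below both replicate values in orange. Most points lie below the line, and replicate 2 was higher in 924 of 1205 members.

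The lowest pooled signals did not match their replicates. In most members the pooled signal was close to the sum of the replicate values (median ratio 0.995), but in 48 (3.98%) it was below each of them. The lowest 4 members were all of this kind. wun, which encodes a lipid phosphate phosphatase of germ cell migration, had a pooled signal of 2.03 with 52.0 in replicate 1 and 59.4 in replicate 2, and RpS21, a ribosomal protein gene, had 2.05 with 88.0 and 67.5. fdl (2.30) and sw (2.31), which encodes the dynein intermediate chain, were alike. All 48 had a stronger peak 199 to 240 bp away, and their replicate 1 value was identical to that neighbour's in 48 and their replicate 2 value in 47. The lowest pooled signal among the other members was 35.2. A further 56 members, Drat among them, shared at least 1 replicate value with the nearest peak while their pooled signal was not below both values. Without all members that shared a value, 1101 remained, with a median log2 ratio of replicate 1 to replicate 2 of -0.39. In the whole list 184 peaks had a pooled signal below both replicate values. Without these 184, the share of members was 25.6% and the upstream share 71.8%.

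Sequence content was compared next, as the share of windows of 100 bp to each side of the summit that held a given sequence on either strand. For 14 sequences and both other classes, 28 Fisher's exact tests were adjusted together. Against divergent promoters, 8 of 14 sequences differed, 2 of them more frequent in members, and against peaks away from coding promoters 5 of 14 differed, all more frequent in members. Divergent peaks were defined by coding TSSs of both strands within 500 bp of the summit, while these windows reach only 100 bp to each side. A divergent window therefore need not hold promoters of both directions, and how many did was not tested. The classes also differed in composition. The median share of G and C in these windows was 39.8% in members, 34.3% at divergent promoters and 37.3% away from coding promoters. The part of composition in the shares of sequences below was not tested.

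The GAGA factor site GAGAGAG had the highest odds ratio of the 14 sequences against divergent promoters. It stood in 108 of 1205 member windows (8.96%), in 4 of 520 divergent windows (0.769%) and in 101 of 2981 windows away from coding promoters (3.39%). The odds ratio was 12.7 (4.92 to 32.8) against divergent windows (adjusted exact p = 6.41e-12) and 2.81 (2.12 to 3.71) against those away (adjusted exact p = 9.56e-12). Over quartiles of the whole list from weak to strong, it stood in 12.6%, 10.5%, 7.22% and 5.63% of member windows, in 0%, 1.85%, 1.39% and 0% of divergent windows and in 4.89%, 3.54%, 2.78% and 2.10% of windows away. Members with the site had a median signal of 81.8, against 98.2 for members without it, and 33 of 108 (30.6%) were in both replicates' lists, against 531 of 1097 (48.4%). Their median share of G and C was 46.0%, against 38.8% without the site. Strong peaks with it existed too, at px and Btk, at TRAM (265.0 in replicate 1 and 449.0 in replicate 2), which encodes a protein of the secretory translocon, and at CG1907 (287.8 and 433.8). TRAM and CG1907 were named after their values were seen.

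Among the other promoter sequences, TATCGATA, CATCNCTA and CAGCTG were less frequent in members than at divergent promoters and more frequent than away from them. TATCGATA stood in 36 member windows (2.99%), in 11.2% of divergent and 0.268% of other windows, with odds ratios of 0.25 (adjusted exact p = 5.75e-10) and 11.4 (adjusted exact p = 6.41e-12). The sequence CATCNCTA, known as Ohler motif 7, stood in 4.23% of member windows, against 10.2% at divergent promoters (odds ratio 0.39, adjusted exact p = 1.45e-05) and 1.21% away (3.62, adjusted exact p = 2.44e-08). GGTCACACT stood in 2.07% of member windows, against 3.65% at divergent promoters, which did not pass the test (adjusted exact p = 0.124), and 0.134% away (odds ratio 15.8, adjusted exact p = 9.40e-10). CAGCTG stood in 11.0%, against 15.96% at divergent promoters (odds ratio 0.65, adjusted exact p = 0.0124) and 7.68% away (1.48, adjusted exact p = 0.00207). With windows of 50 bp to each side, TATCGATA and CATCNCTA were no longer called against divergent windows (adjusted exact p = 0.136 and 0.0510), nor CAGCTG against those away (0.0756). With a TSS window of 250 bp, CATCNCTA was not called against divergent windows (odds ratio 0.63, adjusted exact p = 0.113). For CAGCTG the call against divergent windows was lost under 5 alternatives, each replicate's own list among them (adjusted exact p = 0.0805 to 0.603).

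The start site sequences differed in the comparison with divergent promoters. The Initiator core TCAGT stood in 35.7% of member windows and in 26.9% of divergent windows (odds ratio 1.51, adjusted exact p = 0.00100), a call lost with 50 bp windows (adjusted exact p = 0.155) and in replicate 1's own list (0.0575). TATAAA stood in 29.5% of member windows and 41.0% of divergent ones (odds ratio 0.60, adjusted exact p = 1.45e-05). It was found in 22.2%, 24.6%, 30.6% and 40.5% of members from the weakest to the strongest quartile, which is also the order of their content of A and T. Against windows away from coding promoters neither passed the test, with 36.3% for TCAGT and 29.0% for TATAAA.

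The sequences known for Iroquois proteins were not called more frequent in members than in either other class of peaks. Those classes are Araucan peaks too, so this comparison cannot show whether the sequences mark Araucan peaks as a whole. The palindrome ACANNTGT stood in 108 member windows (8.96%), in 10.2% of divergent and in 9.83% of other windows, and neither difference passed the test (odds ratios 0.87, 0.61 to 1.22, and 0.90, 0.72 to 1.14, adjusted exact p = 0.585 for both). The pentamer TAACA stood in 38.8% of member windows, against 53.5% at divergent promoters (odds ratio 0.55, adjusted exact p = 7.39e-08) and 38.2% away (adjusted exact p = 0.810). Its control TACAA, which has the same bases in another order, was likewise lower in members than at divergent promoters, at 42.5% against 49.4% (odds ratio 0.76, adjusted exact p = 0.0179). The call of TAACA was lost among peaks above the median signal (odds ratio 0.73, adjusted exact p = 0.0523), and that of TACAA under 6 alternatives (adjusted exact p = 0.0597 to 0.777). From the weakest to the strongest quartile of members TAACA stood in 28.1%, 34.9%, 40.2% and 51.8% of windows and the control in 32.8%, 37.2%, 47.2% and 52.8%. The E-box CACGTG, the Zelda site CAGGTAG, GTATTTTT and the control ACTNNAGT passed neither test. Some of these sequences overlap, since a match to ACANNTGT can also hold CAGCTG or CACGTG.

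**Figure D4:**
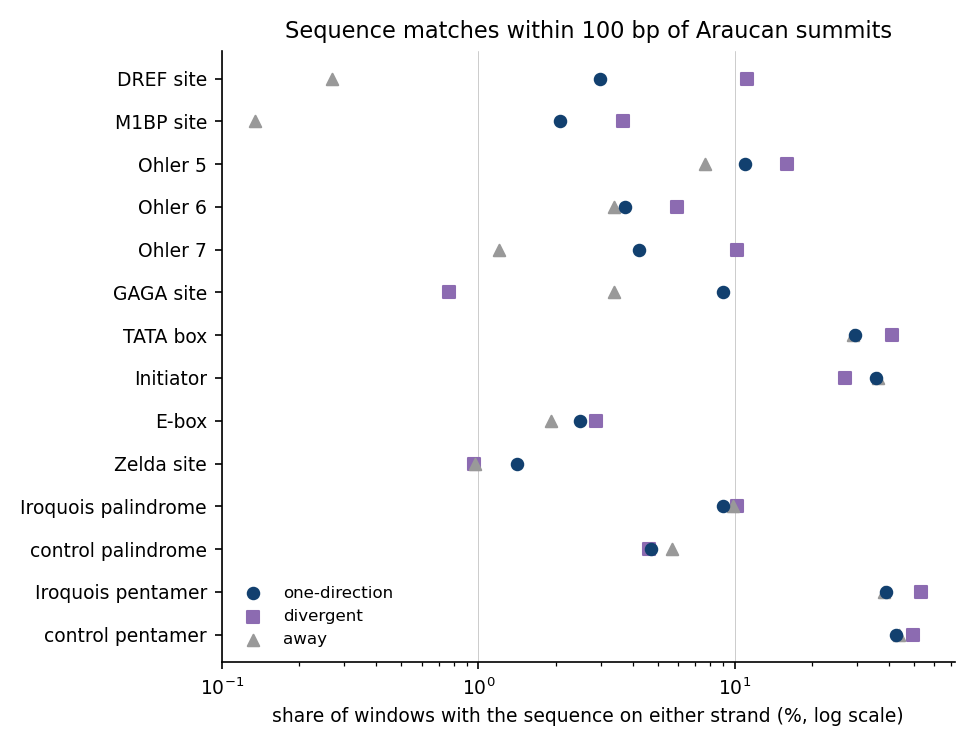
Share of 201 bp windows that held each of 14 sequences on either strand (x axis, %, log scale), for one-direction promoter peaks (circles), divergent promoter peaks (squares) and peaks away from coding promoters (triangles). The GAGA site stands in 8.96% of members, against 0.769% at divergent promoters, and the DREF site in 2.99% against 11.2%.

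Seen from the promoters, 1264 of 14287 one-direction coding promoters (8.85%) had a member summit within 500 bp. Of the promoters with GAGAGAG in the 300 bp from 250 bp before to 50 bp after the TSS, 233 of 1283 (18.2%, 16.1 to 20.4) were bound, against 7.93% of the promoters without it. The bound share was 13.7% (10.7 to 17.1) with GGTCACACT, 13.1% (10.4 to 16.3) with CATCNCTA, 11.6% (10.3 to 13.0) with CAGCTG, 9.97% (7.90 to 12.4) with TATCGATA and 7.78% (7.10 to 8.50) with TATAAA. It was 9.10% (7.80 to 10.5) with ACANNTGT and 9.06% (8.40 to 9.76) with TAACA, both near the background. Of all 14287 such promoters, 8.98% held GAGAGAG, 3.23% GGTCACACT, 3.79% CATCNCTA, 15.6% CAGCTG, 5.12% TATCGATA, 40.8% TATAAA, 54.1% TCAGT, 12.5% ACANNTGT and 48.4% TAACA. Among the bound promoters alone, 18.4% held GAGAGAG, against 8.06% of those not bound.

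The bound share was similar on the large arms, with 8.59% on 2L, 9.20% on 2R, 9.26% on 3L, 8.13% on 3R and 9.57% on X, and with exact intervals that overlap. On arm 4 it was 1 of 120 (0.833%, 0.0211 to 4.56).

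At the level of genes, 1076 of 10730 with a one-direction promoter were bound (10.0%). The share went with gene length, at 2.94%, 6.53%, 10.9% and 19.8% from the shortest to the longest quartile. It also went with the number of annotated coding TSSs, at 6.08% with 1 TSS, 14.1% with 2, 25% with 3, 32.9% with 4 and 41.8% with 5 or more. Each further TSS adds a promoter that can hold a summit. Among genes with 1 TSS the share still went with length, at 2.28%, 5.45%, 7.94% and 13.0%. Genes known only by a CG number were bound in 6.23% of cases and other genes in 13.3%. Their median lengths also differed, at 1607 bp and 3374 bp, and the part of length in this difference was not tested. Lists of long or named genes therefore have a higher share to be read against.

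Among 17 gene lists, cytosolic ribosomal protein genes had the highest share of bound genes, although they are short. Of the 55 with a one-direction promoter, 25 (45.5%, 32.0 to 59.4) were bound, against 10.0% of all genes and 6.53% of all genes in the length quartile of their median. The highest signals were at RpL23A (136.9 in replicate 1 and 110.6 in replicate 2), RpS28b (127.0 and 93.5), RpL30 (98.1 and 117.8) and RpL17 (97.8 and 81.6), so that none approached the strongest members. The list had 30 member summits by nearest gene, with a median signal of 104.3, and 18 of them were in both replicates' lists.

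The ribosomal protein summits sat mostly at or close to the start site. Their median position was 8.5 bp upstream, and 25 of 30 (83.3%, 65.3 to 94.4) were within 100 bp of the TSS, against 384 of 1205 members (31.9%). The median log2 ratio of replicate 1 to replicate 2 was -0.02 in these 30 and -0.37 in all members, and replicate 1 was higher in 14 of 30 (46.7%), against 281 of 1205 (23.3%). Their share of G and C, with a median of 45.3%, was above that of all members (39.8%). Close summits were not particular to this list. Of the 7 summits of translation initiation and elongation factors, 5 (71.4%, 29.0 to 96.3) were within 100 bp of the TSS. In the third quartile of members by G and C, from low to high, 128 of 301 (42.5%) were. These positions were compared after the values were seen, and the part of composition in the ratio was not tested.

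Other lists of protein synthesis, energy metabolism and basic cell functions had lower shares, of 0% to 18.9%. Of 37 genes for translation initiation and elongation factors 7 were bound (18.9%, 7.96 to 35.2), against 6.53% of all genes in the length quartile of their median, led by eIF6 and eEF1gamma (118.9 in replicate 1 and 130.6 in replicate 2), and 6 of their 7 member summits were in both replicates' lists. Of 20 mitochondrial ribosomal protein genes 2 were bound (10.0%, 1.23 to 31.7), against 2.94% in theirs, mRpL41 with 497.1 and 697.5 and mRpL4 with 34.4 and 64.2. No aminoacyl-tRNA synthetase gene was bound of 14 (0%, up to 23.2). Oxidative phosphorylation had 3 of 49 (6.12%), led by SdhD (34.8 and 39.3) and ND-B22 (29.5 and 45.5). The proteasome had 1 of 26 (3.85%, Rpn11), Mediator and general transcription factors 1 of 21 (4.76%, Taf4) and DNA replication 0 of 18. Among all genes in the length quartiles of their medians, 10.9% were bound for the synthetases and for DNA replication. The shares were 6.53% for the proteasome and for Mediator and general transcription factors, and 2.94% for oxidative phosphorylation.

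Genes of promoter and insulator proteins were few. Of the 9 with a one-direction promoter, 4 were bound (44.4%, 13.7 to 78.8), against 10.9% of all genes in the length quartile of their median: Trl, BEAF-32, CTCF and pita. Trl encodes the GAGA factor, and its stronger summit, 122 bp downstream of a TSS, had 140.1 in replicate 1 and 140.4 in replicate 2. A second Trl summit 241 bp upstream of another TSS had 34.1 and 51.1. BEAF-32, which encodes a boundary element protein, had 56.6 and 95.3. Of 17 Polycomb and trithorax group genes 2 were bound (11.8%, 1.46 to 36.4), against 19.8% in the length quartile of their median: ph-p and Psc (30.8 and 50.7).

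Of 43 genes of the Notch, EGFR, Wnt, Dpp and Hedgehog pathways 15 (34.9%, 21.0 to 50.9) were bound, against 19.8% of all genes in the length quartile of their median. The number of TSSs per gene, with which the bound share also rose, was not matched here or for the other lists. The 17 summits had a median signal of 80.4 and 4 were in both replicates' lists, against 46.8% of all members. gro, which encodes the corepressor Groucho, was strongest with 224.2 in replicate 1 and 271.4 in replicate 2, followed by nkd, a feedback antagonist of Wnt signalling, with 113.4 and 172.0. Among the others were the ligand genes wg (45.1 and 38.1), hh (40.3 and 27.5) and spi (105.4 and 104.1 at its stronger summit) and the receptor gene ptc (28.7 and 30.9). The summits at hh and ptc were in neither replicate's own list.

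Of 62 homeobox and patterning factor genes 10 (16.1%, 8.02 to 27.7) were bound, a share near the 19.8% of genes in the length quartile of their median. Their 10 summits had a median signal of 120.8, and 6 were in both replicates' lists. The T-box gene org-1 had 232.0 in replicate 1 and 399.7 in replicate 2, with its summit 350 bp upstream, and the heart gene tin (tinman) had 201.9 and 311.7 at 197 bp upstream. The promoter of ara itself had 28.3 and 36.0, 58 bp upstream, and was listed in replicate 2 alone. Of 14 neuron marker genes 1 was bound (7.14%, 0.181 to 33.9), against 19.8% in the length quartile of their median. It was elav, with 152.2 in replicate 1 and 304.2 in replicate 2.

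Few genes for chemoreceptors, cuticle proteins, odorant binding proteins and cytochrome P450s were bound. Of 164 chemoreceptor genes 1 was bound (0.610%, up to 3.35; Ir67c), of 119 cuticle protein genes 0 (up to 3.05%), of 44 odorant binding protein genes 1 (2.27%; Obp99b) and of 80 cytochrome P450 genes 2 (2.50%, up to 8.74). These are short genes, and the length quartiles of their medians had 6.53%, 2.94%, 2.94% and 6.53% of all genes bound. The exact interval ended below that share for the chemoreceptors alone, so the other families were not set apart from genes of like length. No test of a list was made.

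**Figure D5:**
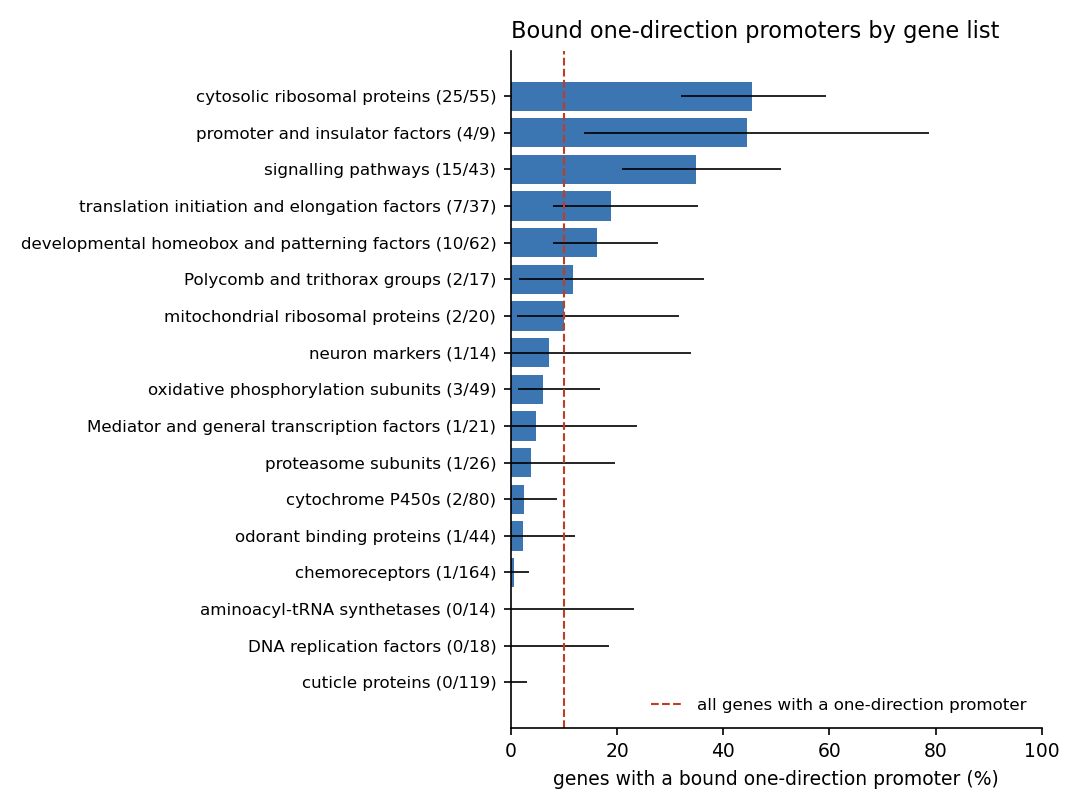
Share of genes with a bound one-direction promoter (x axis, %) in 17 gene lists, with bound and total genes in brackets, exact 95% intervals as error bars and the share over all genes (10.0%) as a dashed line. Cytosolic ribosomal protein genes are at 45.5%, and cuticle protein genes are at 0 of 119.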

How the data were processed

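Peak lists of ChIP-seq for ara-eGFP came from 2 biological replicates. Peaks are on dm6, per the labels. They were ranked and thresholded by their irreproducible discovery rate, per the files deposited. Not given in the sources used here are the aligner, the peak caller and the depth. A peak's signal is the value deposited by the authors, with no stated normalization. It was used to rank and describe peaks. The conservative list held 4716 peaks. Replicate signals came from the series' ranked list, whose value sets equalled a peak in replicate 1's own list for 4662 peaks and in replicate 2's for 4667, and never crossed.

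TSSs came from Ensembl release 115 (BDGP6.54, the sequence of dm6). A summit took the name of the gene with the nearest coding TSS. Promoters were clusters of coding TSSs of one strand within 100 bp of each other, called bound with a member summit within 500 bp. A gene was bound through any such cluster, so that counts of bound genes and of summits by nearest gene can differ. Symbols of a gene list that were not found among the coding genes were left out of its counts. These were Dl and phl (signalling pathways), otd, msh and h (homeobox and patterning factors) and CLAMP (promoter and insulator factors). Sequences were read from the RefSeq copy of dm6, and windows with more than 30 bases of UTR were not printed. Shares have exact Clopper-Pearson intervals (95%), which cover counting error only. Classes were compared by Fisher's exact test with Benjamini-Hochberg adjustment at 0.05, and intervals of odds ratios are normal on the log scale. The counting and tests were checked on simulated data. Scripts used scipy 1.17.1, pandas 2.3.3, numpy 2.4.6 and matplotlib 3.10.9 under Python 3.11.15.

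The genes named are the 15 members of highest and 4 of lowest signal, the 3 highest and 3 lowest replicate ratios, the 2 strongest in each list, 2 at the 500 bp limit (mtsh, also there, was added after its values were seen) and the strongest of each arm. Further names, such as other bound genes of a list, were chosen after their values were seen. The windows printed first are those of the strongest 15 within the UTR limit and not on 2R, except CG18549, which is shown among the promoter sequences. The members, gene lists and sequences searched were chosen with earlier results of these data known. Alternatives were the other thresholded list, each replicate's own list, other TSS windows, 1 TSS per gene, the stronger peaks, other overlap and motif windows and, chosen after seeing the data, leaving out peaks whose pooled signal was below both replicates' signals or that shared a replicate value with the nearest peak.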

Additional observations from a re-analysis of the deposited data

How the results depend on the processing

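No paired analysis was possible because the labels hold a single group. Of 74 recomputed values 55 kept their direction and side of the threshold or stayed near the main value, and of 117 recomputed odds ratios of single motifs 99 did, with 18 no longer past the threshold and 0 reversed. The upstream share (main 71.1%) was past the test under every alternative run. The strong share against divergent peaks also kept its call, with odds ratios of 0.34 (TSS window of 250 bp) to 0.74 (1000 bp). The share of members was 21.6% with a window of 250 bp, 31.1% with 1000 bp and 18.997% with 1 TSS per coding gene, and 25.6% to 27.0% in a single replicate's own list. The bound share of one-direction promoters, 8.85% in the main list, was 10.0% in the other thresholded list, 6.39% with 250 bp, 11.99% with 1000 bp, 8.12% with 1 TSS per gene, 4.67% with the peaks above the median signal, and 4.93% to 7.87% in a single replicate's list. The strong share against peaks away from coding promoters, not called in the main list, had odds ratios of 0.97 with 250 bp, 0.99 (replicate 2's own list) to 1.17 (replicate 1's own list), and 1.25, past the threshold, with replicate 1's signal. The both-replicate share was no longer called against divergent peaks among peaks above the median signal (odds ratio 0.97), or against those away with 250 bp (1.13). Of the 14 motifs, 8 were called against divergent windows in the main list, 5 with 250 bp, 3 with 50 bp motif windows and 5 to 7 in a single replicate's list, and 5 against windows away, with 6 to 7 in a single replicate's list. The cause of these changes was not tested. The depth is unknown, and its part in the 296 members listed in neither replicate was not tested.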
